A study of Mus musculus with 24 samples.

Results

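The genes described here encode the replication-dependent core histones, and 61 of the 55487 genes in the files belong to them. They were chosen by name: every gene whose GENCODE M21 symbol starts with Hist1h2, Hist1h3, Hist1h4, Hist2h, Hist3h or Hist4h was taken, and the linker histone genes and 3 pseudogenes were left out. Of the 61 genes, 18 encode H2A, 18 H2B, 12 H3 and 13 H4. RNA sequencing had been applied to oocytes and early embryos of wild-type mice and of Nlrp14 knockout mice (labelled HO in the sample titles), in work on how loss of the gene affects fertility and early embryos. The 8 groups were wild-type and knockout oocytes at the germinal vesicle stage (GV) and at metaphase II (MII), zygotes at the late pronuclear stage PN5, and 2-cell embryos, with 3 libraries each, labelled as biological replicates, and 5 oocytes or embryos pooled in each library. The strain, the age of the females, the deleted part of Nlrp14 and the genotype of the sires are details not given in the sources used here. Levels are in FPKM (fragments per length of transcript, corrected for how many fragments the library mapped). This is a level per length and allows genes to be compared with each other as far as their mRNAs are captured alike.

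Core histones form the protein spool of the nucleosome: a pair of H3 and H4 dimers at its centre is flanked by H2A and H2B dimers. Dividing cells make them in S phase from clusters of short, mostly intronless genes under the coactivator NPAT, and their mRNAs end in a conserved stem-loop, bound by the protein SLBP, in place of a poly(A) tail. Oocytes store histone mRNA and protein for the divisions of the early embryo, which begin before the embryonic genome is fully active. The SMART-Seq HT kit primes reverse transcription on poly(A), so the values here report the part of each histone mRNA that such priming reaches. How much of each mRNA carried a tail was not measured.

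The 61 genes lie in 4 places of build GRCm38. The large Hist1 cluster (48 genes) spans chr13:21715763-23934851, Hist2 (10 genes) chr3:96219865-96270132, Hist3 (2 genes) chr11:58948920-58956830, and Hist4 is the single gene Hist4h4 at chr6:136801553-136804415. Their annotated exons are short, with a median of 528 nt, and 56 of the 61 genes have a single exon. The stem-loop, searched on the sense strand as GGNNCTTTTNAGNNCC after the stop codon of the annotated transcripts, was found in 40 of the 61 genes and in 0.174% of the 21890 other protein-coding genes. It is shown here for the genes whose levels the results turn on, with the stem-loop in capitals and up to 5 bases on each side (DNA letters, sense strand, from the reference transcripts).
Hist1h2ao: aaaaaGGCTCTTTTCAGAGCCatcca
Hist1h2ap: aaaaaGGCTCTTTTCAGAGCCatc
Hist2h2aa1: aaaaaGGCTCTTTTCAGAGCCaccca
Hist1h2bg: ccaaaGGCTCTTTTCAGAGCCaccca
Hist1h2bk: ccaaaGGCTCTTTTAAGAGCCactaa
Hist3h2ba: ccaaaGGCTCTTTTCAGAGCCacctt
Hist2h3c2: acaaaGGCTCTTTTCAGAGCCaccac
Hist1h4c: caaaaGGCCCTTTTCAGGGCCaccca
Hist4h4: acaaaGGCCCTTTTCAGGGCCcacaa
Of the genes printed here, the H2A, H2B and H3 genes share 1 stem and both H4 genes another; other H4 genes, such as Hist1h4b, hold yet another. Only 3 of the 40 annotated transcripts end within 20 bases after the stem-loop, and 18 run more than 100 bases past it. Hist1h2aa and Hist1h2ba, which encode the germ-cell histones TH2A and TH2B, are annotated as coding sequence alone, so no stem-loop could be searched there.

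Hist1h2aa and Hist1h2ba stand head to head on chromosome 13, and their start regions overlap. The 300 bases around the start of Hist1h2aa (chr13:23934187-23934486, + strand, RefSeq on GRCm38.p6) are printed because the pair had unlike courses over the stages. Capitals mark the CCAAT box, the TATA box sequence TATAAA, and the octamer ATTTGCAT, on either strand.
Hist1h2aa promoter: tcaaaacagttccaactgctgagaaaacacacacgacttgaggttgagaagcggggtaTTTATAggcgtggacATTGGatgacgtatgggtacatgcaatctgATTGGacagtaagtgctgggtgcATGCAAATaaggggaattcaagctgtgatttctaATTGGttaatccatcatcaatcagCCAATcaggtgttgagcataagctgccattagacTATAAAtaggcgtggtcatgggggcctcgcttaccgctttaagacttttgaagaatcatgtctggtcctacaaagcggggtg
CCAAT occurred in 47 of the 56 promoters that were in the table (18 of 18 for H2A, 16 of 16 for H2B, 10 of 10 for H3 and 3 of 12 for H4) and in 37.9% of 27025 promoters of the same length. TATAAA occurred in 31 of the 56 promoters against 14.2% of all. ATTTGCAT occurred in 7 of the H2A and 6 of the H2B promoters, in none of the 22 others, and in 1.75% of all promoters. These are matches of letters, not measured binding.

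Near-identical copies limit what can be said of single genes. Of the 61 coding sequences, 8 were identical to that of another member and 46 were at least 95% identical to their closest relative. Runs of 100 bases shared with another member were found in 58 genes, and they made up at least 50% of all such runs in 28. Hist2h2aa1 and Hist2h2aa2 have identical coding sequences, and every 100-base run of each is also found in another member. Hist2h2aa2 was listed at 0 in all 24 libraries, so Hist2h2aa1 stands here for the pair. Hist1h2ao and Hist1h2ap have the same coding sequence and share 92.7% and 92.2% of their 100-base runs with other members, and the division of fragments between them is uncertain. The authors' treatment of reads that match several places is not stated.

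The depth implied by the FPKM steps was 7.65 to 12.3 M fragments a library, of which the 61 genes took between 429 and 6820 fragments. Of the 61 genes, 14 stayed under 1 FPKM in every library, 47 reached 1 FPKM and 16 reached 10 FPKM in at least 1 library. Nlrp14 checked the labels: it stood at 1876 to 2014 FPKM for wild type against 22.2 to 39.2 FPKM for the knockout in GV oocytes, and at the other 3 stages the highest knockout value was also under the lowest wild-type value. Markers of oocytes were high in all libraries, at a summed level of at least 1300.3 FPKM. Of 19 granulosa and cumulus markers, between 2 and 10 were at 0 in all 3 libraries of a group, and their summed level was 7.89 to 35.8 FPKM over the 24 libraries. Of 14 sperm and spermatid markers, between 3 and 8 were at 0 in all 3 libraries of a group, with a summed level of 6.98 to 35.6 FPKM. In pools of this kind, fewer cells and less RNA per cell cannot be told apart.

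Together the 61 genes were most abundant in GV oocytes, lowest at MII and PN5, and high again in 2-cell embryos. The summed level was 454 ± 11.8 FPKM (SD, n = 3) in wild-type GV oocytes, 117 ± 4.22 at MII, 178 ± 58.6 at PN5 and 362 ± 57.5 in 2-cell embryos. In the knockout it was 729 ± 97.4, 177 ± 66.9, 81.6 ± 7.48 and 493 ± 21 FPKM at the same stages. In order of the mean, the groups ran from knockout GV through knockout 2-cell, wild-type GV, wild-type 2-cell, wild-type PN5, knockout MII and wild-type MII to knockout PN5. Neighbours in this order overlapped only for wild-type PN5 with knockout MII and for knockout MII with wild-type MII. The order depends on the scale, since the summed FPKM of all genes differed between libraries. As a share of that sum, wild-type GV oocytes (0.118 to 0.121%) lay above knockout 2-cell embryos (0.0965 to 0.102%). On that scale the mean of knockout MII (0.0499%) also lay above that of wild-type PN5 (0.0455%).

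The make-up of the sum turned over between the oocyte and the 2-cell embryo. In wild-type GV oocytes H2B genes gave 64.3 to 65.3% of it, with Hist1h2bc alone at 32.4%. In wild-type 2-cell embryos H2A genes gave 78.2 to 84.7%, with Hist1h2ao alone at 55.4%. In knockout 2-cell embryos the H2A share was 49.7 to 73.0%, below every wild-type library, and Hist1h2ao held 31.2%. H3 genes were the lowest or next to lowest class throughout by mean level, at 5.39 to 31.1 FPKM in sum, and no H3 gene had a mean over all libraries above 2.68 FPKM (Hist2h3c2).

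**Figure D1:**
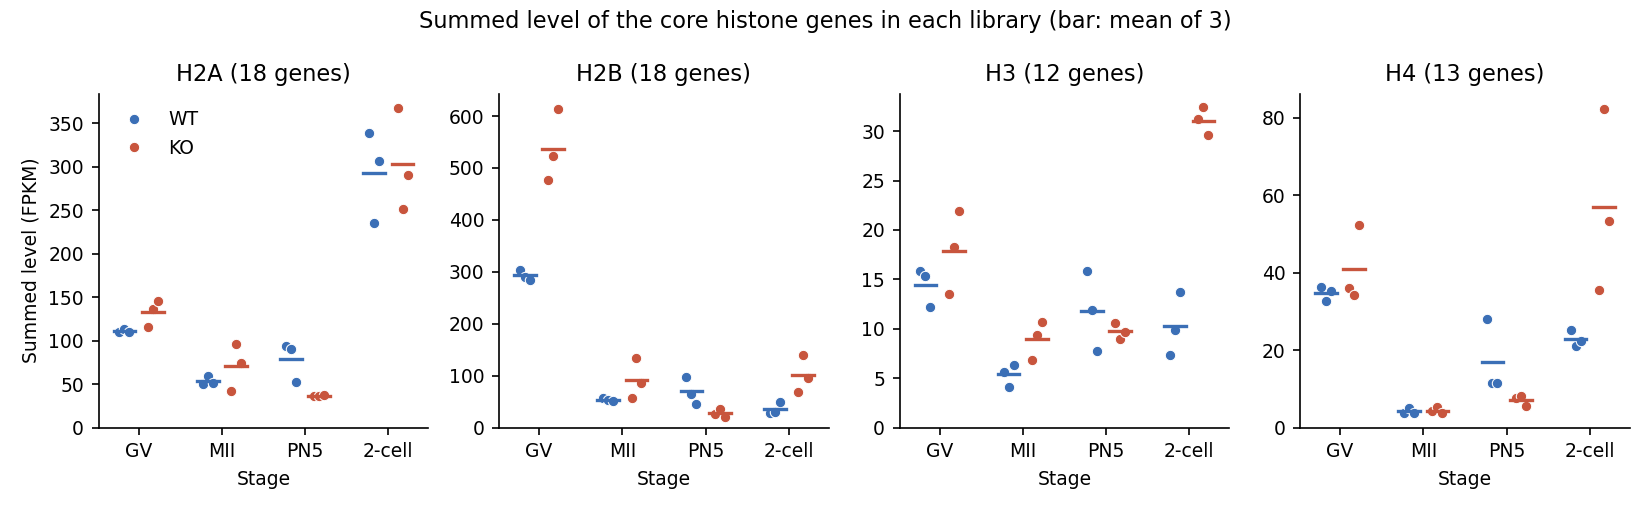
Summed FPKM of the H2A, H2B, H3 and H4 genes (1 panel each, linear axes with different ranges) by stage; each point is 1 library, blue wild type and red knockout, and bars are means of 3. The H2B sum is highest at GV, the H2A sum at the 2-cell stage, and the 3 knockout 2-cell libraries lie above the 3 wild-type ones for H2B, H3 and H4 but not for H2A.

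The single genes followed different courses. Hist1h2bc, an H2B gene, was the most abundant member at GV, at 148, 146 and 148 FPKM for wild type against 264, 281 and 317 FPKM for the knockout. It was at 28.9, 25.1 and 22.2 against 25.8, 68.2 and 38.8 FPKM at MII, 14.2, 12.1 and 6.39 against 3.64, 4.64 and 2.39 FPKM at PN5, and 1.66, 0.624 and 6.11 against 1.84, 5.55 and 3.47 FPKM in 2-cell embryos. It fell from GV to MII and from MII to PN5 in both genotypes, and the genotypes did not overlap at GV or PN5 and overlapped at MII and in 2-cell embryos. Hist1h2bg, another H2B gene, was likewise higher in the knockout at GV and lower at PN5: 80.3, 75.0 and 72.7 against 133, 143 and 173 FPKM at GV, and 10.7, 8.80 and 4.39 against 1.99, 4.17 and 2.16 FPKM at PN5. In 2-cell embryos it stood at 2.53, 1.00 and 3.38 FPKM for wild type and, without overlap, at 4.06, 5.81 and 6.11 FPKM in the knockout.

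Hist1h2ao, an H2A gene, was also lower at MII than at GV, but it was highest in 2-cell embryos. At GV it was at 13.4, 13.0 and 9.76 FPKM for wild type against 14.3, 17.8 and 7 FPKM for the knockout, and at MII at 5.07, 4.98 and 6.61 against 0.568, 0.930 and 3.94 FPKM. At PN5 it was at 13.8, 8.84 and 5.06 against 1.83, 1.29 and 1.71 FPKM, and in 2-cell embryos at 232, 163 and 208 against 212, 104 and 145 FPKM. The genotypes overlapped at GV and in 2-cell embryos, while all 3 knockout libraries were lower at MII and PN5. Hist1h2ap, its copy, stood at 63.3, 41.1 and 50.2 against 53.9, 28.0 and 33.3 FPKM in 2-cell embryos and at most at 4.09 FPKM before.

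Hist2h2aa1, an H2A gene of the Hist2 cluster, dipped at MII. It was at 31.1, 40.1 and 34.8 against 46.8, 58.6 and 65.8 FPKM at GV, 1.73, 3.02 and 1.39 against 1.86, 4.11 and 3.71 FPKM at MII, and 44.5, 36.9 and 23.6 against 15.3, 12.8 and 13.3 FPKM at PN5. In 2-cell embryos the values were 11.3, 9.67 and 15.4 FPKM for wild type against 65.1, 87.6 and 83.1 FPKM for the knockout. The knockout was the higher group at GV, the lower at PN5 and the higher in 2-cell embryos, each time without overlap. The TH2A gene Hist1h2aa was the most abundant member at MII, where it gave 35.6% of the wild-type sum: its levels were 45.9, 43.6 and 48.7 FPKM in wild-type GV oocytes, 39.6, 47.6 and 37.8 at MII, 23.4, 36.8 and 19.9 at PN5 and 4.62, 2.11 and 2.35 in 2-cell embryos. In the knockout it was at 36.5, 37.4 and 49.2, then 37.2, 86.1 and 61.8, then 15.1, 17.7 and 19.2, and then 8.68, 13.8 and 3.43 FPKM, and the genotypes stood apart at PN5 alone. Its neighbour Hist1h2ba (TH2B) did dip at MII, at 0.691 to 1.91 FPKM over both genotypes.

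**Figure D2:**
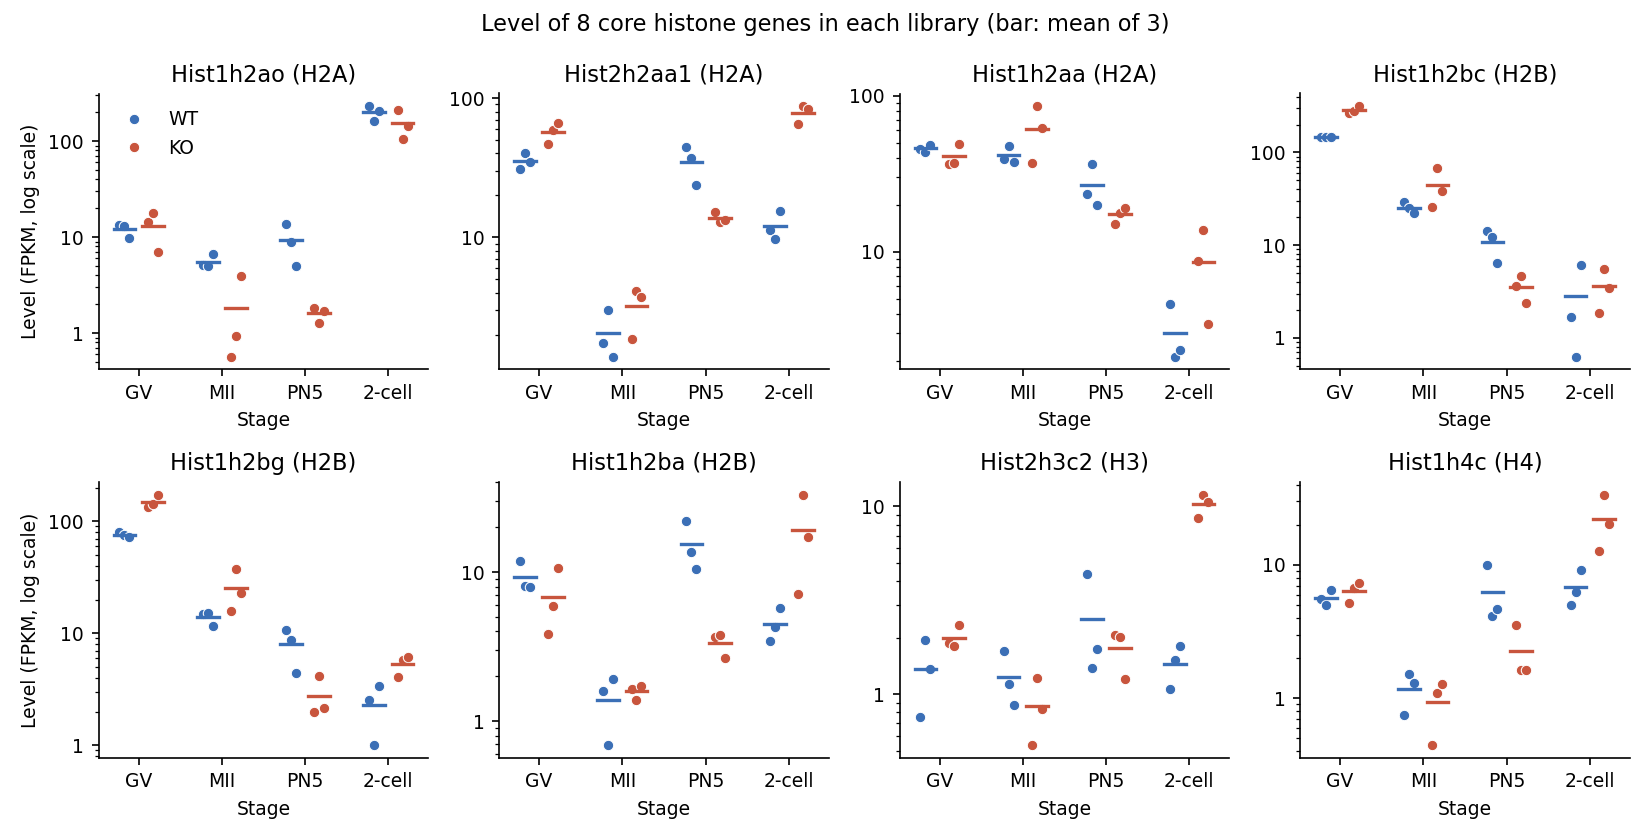
Level of 8 core histone genes in each library (FPKM on log axes whose ranges differ), by stage, blue wild type and red knockout; bars are means of 3 libraries. Hist1h2bc and Hist1h2bg are highest at GV in both genotypes, Hist1h2ao is highest in 2-cell embryos of both genotypes, and Hist2h2aa1, Hist2h3c2 and Hist1h4c are higher in every knockout 2-cell library than in any wild-type one.

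Tests were made on log2(FPKM + 1), a scale that understates the change of low genes, with limma over all genes that reached 1 FPKM in at least 3 libraries of the comparison; a gene is called when its p, adjusted over all tested genes by the method of Benjamini and Hochberg, is under 0.05. By this filter 40 of the 61 genes were tested in at least 1 comparison and 21 in none. A gene that passed through its high group alone had to differ, so counts of called members are descriptions, read beside the share of all tested genes that were called. The spread behind each p is that between pools, and with 3 libraries a group leaving out 1 changes several counts.

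From GV to MII most of the tested core histone genes fell in both genotypes. In wild type 23 of 26 fell and 1 rose, where 52.8% of all tested genes fell and 31.1% rose, and the median change was -1.61 against -0.50 over all tested genes. The largest falls were those of Hist2h2aa1 (log2 -3.6, SE 0.20, adjusted p = 1.03e-06), Hist1h4h (-3.05), Hist3h2a (-2.73) and Hist1h2bk (-2.67), followed by Hist1h2bc (-2.50), Hist1h2bg (-2.38), Hist1h3g (-2.18) and Hist1h4a (-2.13). Hist3h2a went from 10.3, 9.53 and 9 to 0.757, 0.289 and 0.796 FPKM, and Hist1h4h, the H4 gene with the highest mean, from 17.4, 14.2 and 15.9 to 1.30, 0.941 and 0.866 FPKM. Hist1h2aa differed by -0.15 (SE 0.10, adjusted p = 0.213). Hist2h3c1 was the gene called higher (0.45, adjusted p = 0.0424), although its libraries overlapped, at 0.899, 1.09 and 0.699 against 1.78, 0.995 and 2.08 FPKM. In the knockout 21 of 27 fell, where 48.2% of all tested genes did, and Hist2h3c1 rose (0.48), where 20.8% rose. Here too Hist2h2aa1 (-3.81), Hist1h4h (-3.43), Hist1h2bc (-2.78) and Hist1h2bk (-2.59) headed the list, then Hist1h2bg (-2.59), Hist1h2ao (-2.42), Hist3h2a (-2.33) and Hist1h2bn (-2.24). Among all genes called in the knockout 30.2% were higher, and 43.3% with median-of-ratios rescaling. Without any 1 of the wild-type GV libraries 13 genes were called in wild type, of 16 or 17 that then passed the filter. No core histone gene passed the test of a difference between the genotypes in this step (0 of 30, 3 at an unadjusted p under 0.05), where 0.12% of all 12478 tested genes did (40% of those calls were higher, and 60% with median-of-ratios rescaling).

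From MII to PN5 Hist2h2aa1, Hist1h2ba and Hist1h2bk rose and Hist1h2bc fell in both genotypes. In wild type 6 of 18 tested genes rose, where 9.8% of all tested genes rose, and 1 fell, where 4.44% fell. Hist2h2aa1 rose most (log2 3.55, SE 0.31, adjusted p = 0.0014), then Hist1h2ba (2.75), Hist1h2bk (2.32), Hist1h4c (1.66), Hist1h2bj (1.5) and Hist1h2bq (0.90), and Hist1h2bc fell by 1.21 (SE 0.30, adjusted p = 0.0346). Hist1h2ba, the TH2B gene, went from 1.59, 0.691 and 1.91 to 21.9, 13.6 and 10.5 FPKM for wild type and from 1.66, 1.40 and 1.72 to 3.66, 3.76 and 2.67 FPKM in the knockout. The wild-type PN5 values thus lay above all knockout ones. In the knockout 3 of 18 rose, where 22.5% of all tested genes rose: Hist2h2aa1 (1.85), Hist1h2bk (1.09) and Hist1h2ba (0.74). There 5 fell, where 10.4% fell: Hist1h2bc (-3.23), Hist1h2bg (-2.77), Hist1h2aa (-1.70), Hist1h2bf (-0.92) and Hist3h2ba (-0.83). These counts rest on single libraries: in wild type 3 genes were called without any 1 of the MII libraries and 4 without PN5 replicate 2, and in the knockout 5 without MII replicate 3 and 4 without PN5 replicate 1 or 2. Rescaling to TPM, which gives all libraries 1 sum, gave 5 rises and 5 falls in the knockout, removal of a trend with gene length 7 and 3, and median-of-ratios rescaling 4 rises and no fall in wild type. That rescaling moved the share of rises among all called genes from 68.8% to 55.9% in wild type and from 68.4% to 44.4% in the knockout.

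The change from MII to PN5 was lower in the knockout for 6 of 21 genes, where 4.59% of all tested genes had a lower change, and higher for none, where 2.86% had a higher one. They were Hist1h2bc (difference of log2 changes, knockout minus wild type, -2.03), Hist1h2ba (-2.002), Hist1h2bg (-1.97), Hist2h2aa1 (-1.70), Hist1h2bj (-1.63) and Hist1h2bf (-1.46), with adjusted p from 0.0401 to 0.0495 in the limma fit. Of these 6, 5 are H2B genes. Leaving out 1 library gave 0 calls for 9 of the 12 libraries, 1 without wild-type PN5 replicate 1, 9 without knockout MII replicate 1 and 11 without wild-type PN5 replicate 3. No member was called with TPM values, under which 1 gene was called in all, or with length trends removed.

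From PN5 to the 2-cell stage the wild-type genes moved both ways. All 7 tested H2A genes of the Hist1 cluster other than Hist1h2aa rose, and 7 of 9 tested H2B genes fell. Of the 7, Hist1h2ab, Hist1h2ac, Hist1h2ad, Hist1h2ag and Hist1h2ai were tested only in the 4 comparisons that hold 2-cell libraries. They passed the filter mainly through those libraries. Their rise was thus largely fixed in advance and cannot show a split by type. In all, 9 of 29 tested genes rose, where 48% of all tested genes rose, and 10 fell, where 14.8% fell. Hist1h2ao rose by 4.38 (SE 0.34, adjusted p = 1.5e-05) and Hist1h2ap by 3.89 (SE 0.31), followed by Hist1h2ag (2.10), the H4 gene Hist1h4i (1.86), Hist1h2ab (1.72), Hist1h2ac (1.64), Hist1h2ai (1.59) and Hist1h2ad (1.41). The largest falls were those of Hist1h2aa (-2.79, SE 0.34, adjusted p = 0.000136), Hist1h2bc (-1.86), Hist1h2ba (-1.53) and Hist1h2bg (-1.44), then Hist2h2aa1 (-1.43), Hist1h2bf (-1.16), Hist1h2bk (-0.81) and Hist1h2bn (-0.80). Leaving out wild-type 2-cell replicate 1, 2 or 3 left 8, 7 or 9 calls, of 21 to 23 genes that then passed the filter. Among all called genes 76.4% rose, and 63.4% with median-of-ratios rescaling, under which 6 of the 7 Hist1 H2A genes were called.

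In the knockout most tested genes of all 4 types rose in the same step. Of 34 tested genes 28 rose, where 43.8% of all tested genes rose, and 2 fell, where 26.8% fell. By type, 9 of 11 H2A, 7 of 9 H2B, 6 of 8 H3 and 6 of 6 H4 genes rose. These counts include genes that passed the filter through their 2-cell libraries alone and so had to rise. With 1 knockout 2-cell library left out, only 20 of the 34 genes passed. Hist1h2ao (5.84, SE 0.25, adjusted p = 1.81e-06), Hist1h2ap (4.70), Hist1h2bj (2.87) and Hist1h4c (2.78) rose most, then Hist1h2ag (2.53), Hist2h2aa1 (2.42), Hist1h4h (2.21) and Hist4h4 (2.19). Hist1h2aa fell (-1.09, adjusted p = 0.0405), as did Hist2h3c1 (-0.95). Without knockout 2-cell replicate 1, 2 or 3 the counts were 16, 13 and 14, of 20 genes that then passed the filter, and 18 genes were called with length trends removed. Among all called genes 62.1% rose, and 44.6% with TPM values.

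**Figure D3:**
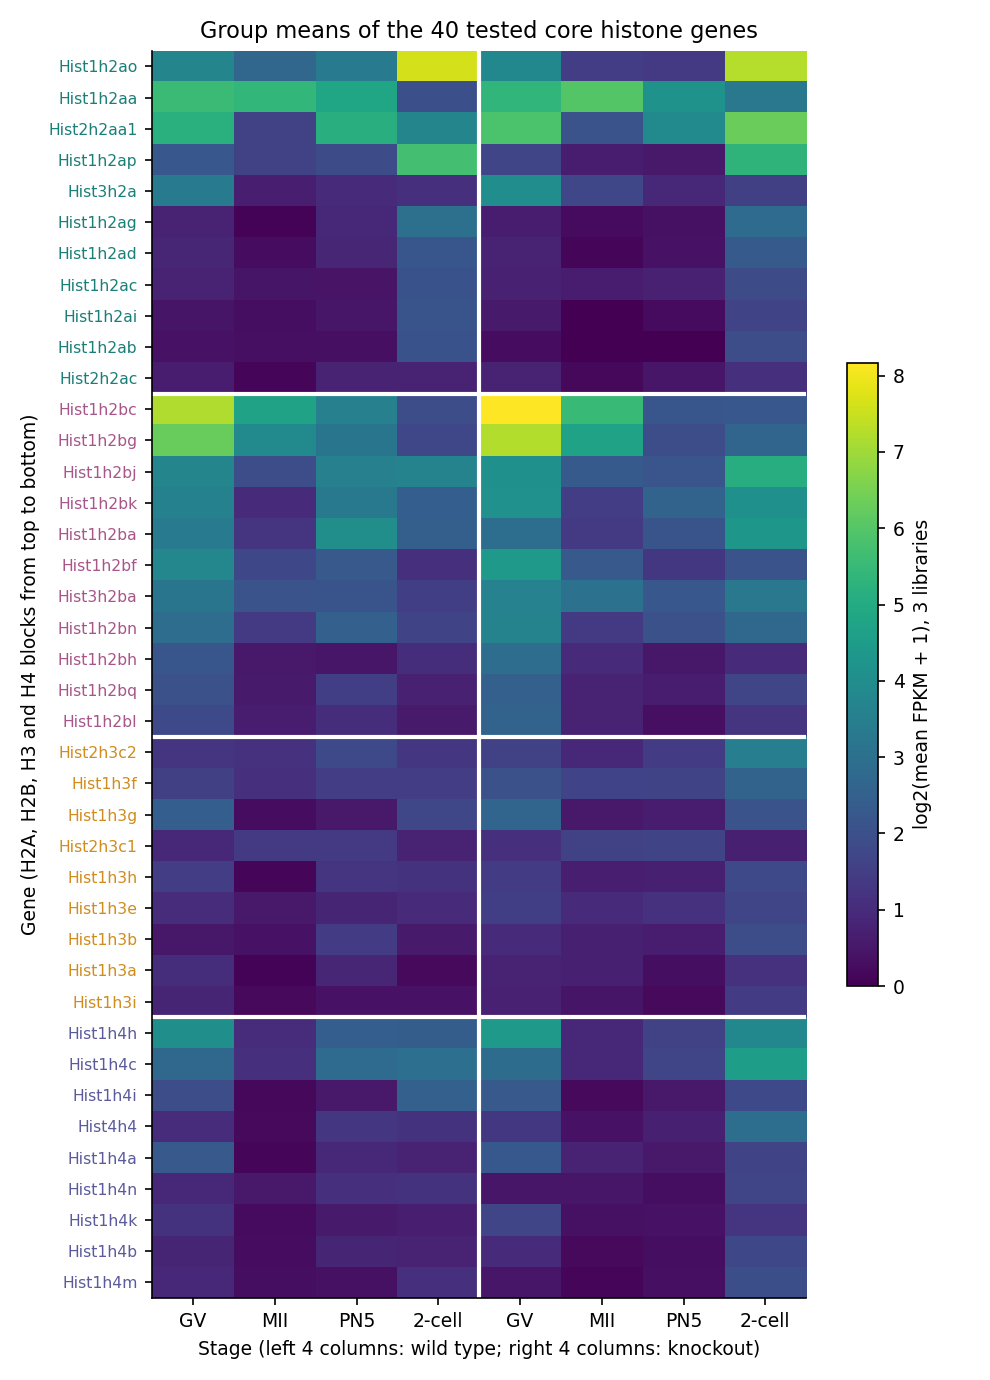
Mean level of the 40 tested core histone genes in each group, as log2(mean FPKM + 1) by colour; rows are genes in blocks of H2A, H2B, H3 and H4, columns the 4 stages in wild type (left) and knockout (right). Hist1h2ao and Hist1h2ap are brightest in 2-cell embryos, Hist1h2bc and Hist1h2bg at GV, and the MII columns are dark for most genes.

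Knockout was then compared with wild type within each stage. In GV oocytes no core histone gene passed the test (0 of 29; 11 at an unadjusted p under 0.05), where 0.043% of all tested genes were called. The values leaned to the knockout: 23 of 29 log2 differences were positive, with a median of 0.37 against -0.08 over all tested genes, and among H2B genes 10 of 11 were positive. All knockout libraries lay above all wild-type ones for 11 genes, where this held for 8.14% of all tested genes, and below them for Hist1h2ap, where it held for 14.8%. Hist1h2bc and Hist1h2bg came nearest to the threshold, with differences of 0.96 (SE 0.14, adjusted p = 0.0922) and 0.96 (SE 0.16, adjusted p = 0.0956) on the log2 scale. Without knockout GV replicate 3 they were called (0.88, adjusted p = 0.00598, and 0.85, adjusted p = 0.00939), together with Hist1h4i (0.52, adjusted p = 0.0464). With length trends removed both were called as well (adjusted p = 0.0329 and 0.0455). Over all genes, that library's levels ran with exon length at a slope of -0.13 log2 units a doubling, against 0.00 to 0.04 in the other 5 GV libraries; the part of this trend in the differences was not tested beyond that refit.

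At MII 1 of 16 tested genes was called, lower in the knockout, where 1.96% of all tested genes were lower. It was Hist1h2ap, at 2.32, 1.47 and 2.36 FPKM for wild type and, without overlap, 0.565, 0.556 and 0.589 FPKM in the knockout (log2 -0.94, SE 0.17, adjusted p = 0.0372), or 8 to 14 fragments against 3 in each knockout library. Hist1h2ap passed the filter through its wild-type libraries alone, so it could only come out lower. Only Hist1h2ao and Hist1h2ap were lower in every knockout library, where 26.1% of all tested genes were, and Hist1h3f and Hist1h2bg higher, where 8.35% were. Hist1h2ao, the copy, differed by -1.40 (SE 0.39, adjusted p = 0.0809). Of the 16 differences 12 were positive, with a median of 0.39 against -0.18 over all tested genes. The call of Hist1h2ap was lost with median-of-ratios rescaling, a pseudocount of 0.1, no filter or 1 fit of all 24 libraries, and with a mean of at least 5 FPKM no member was called. Median-of-ratios rescaling moves that median to 0.03 and the share of higher genes among all called genes from 14.1% to 35.4%. No core histone gene was called without any 1 of the wild-type MII libraries or knockout replicate 2, and Hist1h2ao in place of Hist1h2ap without knockout replicate 3. Without knockout replicate 1, 7 genes were called, among them Hist1h2bc (1.00), Hist1h2bg (1.03) and Hist1h2aa (0.80) as higher.

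At PN5 the called genes Hist1h2ao, Hist1h2ap, Hist2h2aa1 and Hist1h2ba were lower in the knockout. They were 4 of 21 tested genes, where 5.53% of all tested genes were lower, and none was higher, where 0.569% were higher. The median difference was -0.79 against 0.01 over all tested genes, 17 of 21 values were negative, and for 11 genes all knockout libraries lay below all wild-type ones, where this held for 24% of all tested genes; for Hist1h3e all lay above, where 16.1% did. The differences were -1.88 for Hist1h2ao (SE 0.33, adjusted p = 0.0355), -1.85 for Hist1h2ba (SE 0.30, adjusted p = 0.0341), -1.26 for Hist1h2ap (SE 0.27, adjusted p = 0.0428) and -1.24 for Hist2h2aa1 (SE 0.27, adjusted p = 0.0413). Hist1h2ap had 4.09, 2.03 and 1.75 FPKM for wild type against 0.546, 0.642 and 0.213 FPKM for the knockout. It thus passed the filter through its wild-type libraries alone and could only come out lower, yet it is counted among the 4. Median-of-ratios rescaling moved the share of higher genes among all called genes from 9.34% to 26.7%, and TPM values moved the median of all tested genes to 0.23. Next to the threshold stood the H2B genes Hist1h2bc (-1.35, adjusted p = 0.0537), Hist1h2bf (-0.97, adjusted p = 0.0573) and Hist1h2bj (-1.30, adjusted p = 0.0669). The calls rest on single libraries: no member was called without wild-type replicate 2 or any 1 of the knockout libraries, 4 were made without wild-type replicate 1 and leaving out wild-type replicate 3 gave 9. Wild-type replicate 1 was the highest library for Hist1h2ao, Hist1h2ba, Hist1h2ap and Hist2h2aa1, and over all genes its levels ran with exon length at a slope of -0.17 log2 units a doubling and with GC content at -0.38 per 10 percentage points. In the knockout libraries these slopes were 0.06 to 0.09 and 0.07 to 0.18. Removal of the length trend brought the median of the members to -0.31 and left Hist1h2ao (-1.39, adjusted p = 0.0414) and Hist1h2ba (-1.36, adjusted p = 0.0414) as called. With median-of-ratios rescaling, TPM values or no filter no member was called, while the calls over all genes went from 54 higher and 524 lower to 15, 7 and 3 in all. Stage markers differed in the same comparison: the 2-cell markers summed to 61.1 to 108 FPKM in wild-type and to 16.2 to 41.7 FPKM in knockout zygotes, with Tcstv1 called lower (-1.67), and the oocyte marker H1foo was called higher (0.84). Their part in the member values was not tested.

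In 2-cell embryos the called core histone genes were all higher in the knockout, while most calls over all genes were lower. Of 36 tested genes 17 were called higher, where 14% of all tested genes were higher, and none lower, where 40.3% were lower. The median difference was 0.85 against -0.44 over all tested genes, and 19 genes were higher in every knockout library than in any wild-type one, where this held for 17.5%; none was lower in every one, where 44.6% were. By type 1 of 11 H2A, 8 of 10 H2B, 4 of 7 H3 and 4 of 8 H4 genes were called. These counts include Hist1h3b, which passed the filter through its knockout libraries alone and so could only be higher. Hist1h3i passed mainly through them. Leaving out 1 library gave 10 (without knockout replicate 2) to 17 calls, with 11 without wild-type replicate 1 or 2. Without any 1 of the knockout libraries Hist1h3b was no longer tested, so those counts partly reflect the filter. With median-of-ratios rescaling, which moves the median of all tested genes from -0.44 to -0.05, 22 members were called higher and none lower. The share of higher genes among all called genes went from 25.8% to 46.5% under that rescaling.

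Among H2A genes the difference was that of Hist2h2aa1, which was higher by 2.61 (SE 0.23, adjusted p = 0.000245) and had 55 to 69 fragments in the wild-type and 304 to 400 in the knockout libraries. The 7 Hist1 H2A genes without Hist1h2aa, a set singled out after its values were seen, had a median difference of -0.19, with 1 of 7 positive, from -0.45 to 0.08. For Hist1h2ao it was -0.43, with a 95% interval of -1.06 to 0.20 (adjusted p = 0.218). Under median-of-ratios rescaling 6 of the 7 were positive, with a median of 0.21 and none called, so no direction can be given for them. Hist1h2ap was called lower without knockout replicate 1 (-0.71, adjusted p = 0.0495). The other 29 tested members had a median of 1.00, and 27 were positive. Hist1h2aa differed by 1.15 (SE 0.44, adjusted p = 0.0554).

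H2B genes made up the largest group of calls. Hist3h2ba, the H2B gene of the Hist3 cluster, stood at 1.76, 1.01 and 2.77 FPKM for wild type against 8.58, 8.99 and 8.52 FPKM for the knockout (log2 1.82, SE 0.27, adjusted p = 0.001). Hist1h2ba had 3.44, 4.29 and 5.79 against 7.19, 33.1 and 17.1 FPKM (1.66, SE 0.47, adjusted p = 0.0161). Hist1h2bk had 3.78, 4.33 and 5.22 against 15, 22.9 and 11 FPKM (1.62, SE 0.29, adjusted p = 0.00206). In all 3 genes the knockout libraries lay above the wild-type ones. Hist1h2bj had 9.85, 11.8 and 13.0 against 19.5, 43.5 and 36.0 FPKM (1.37, SE 0.30, adjusted p = 0.00538). Hist1h2bn (1.03), Hist1h2bg (1.00), Hist1h2bq (0.95) and Hist1h2bf (0.92) were called too, whereas Hist1h2bc differed by 0.48 (SE 0.53, adjusted p = 0.473).

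Of the H3 and H4 genes, which encode the centre of the nucleosome, 4 of 7 and 4 of 8 tested were called higher in the knockout. The H3 gene Hist2h3c2 stood at 1.06, 1.52 and 1.79 FPKM against 8.73, 11.6 and 10.5 FPKM (log2 2.20, SE 0.23, adjusted p = 0.000325). Hist1h3b had 0.581, 0.332 and 0.632 against 3.03, 2.69 and 2.75 FPKM (1.34, SE 0.21, adjusted p = 0.00118), or 2 or 3 fragments in each wild-type library against 13 to 15. Hist1h3f (1.18, SE 0.39, adjusted p = 0.0306) and Hist1h3i (1.10, SE 0.32, adjusted p = 0.0184) were called as well, the latter from 0 to 3 against 4 to 8 fragments, and both missed the threshold in some of the other settings. Hist1h3b passed the filter through its knockout libraries alone and Hist1h3i mainly so. The direction of these calls was thus largely fixed in advance. Among H4 genes Hist4h4 had 0.713, 1.37 and 1.87 against 4.82, 9.41 and 5.99 FPKM (1.73, SE 0.30, adjusted p = 0.00201). Hist1h4c had 4.98, 6.28 and 9.25 against 12.7, 33.8 and 20.3 FPKM (1.5, SE 0.36, adjusted p = 0.008), and Hist1h4h 4.09, 3.95 and 5.01 against 8.54, 17.2 and 13.2 FPKM (1.34, SE 0.28, adjusted p = 0.00392). All of the H3 and H4 genes called were higher in every knockout library. Hist1h4m was called at 0.81 (adjusted p = 0.0375), and Hist1h4i had the lowest value of all members (-0.60, SE 0.37, adjusted p = 0.209).

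**Figure D4:**
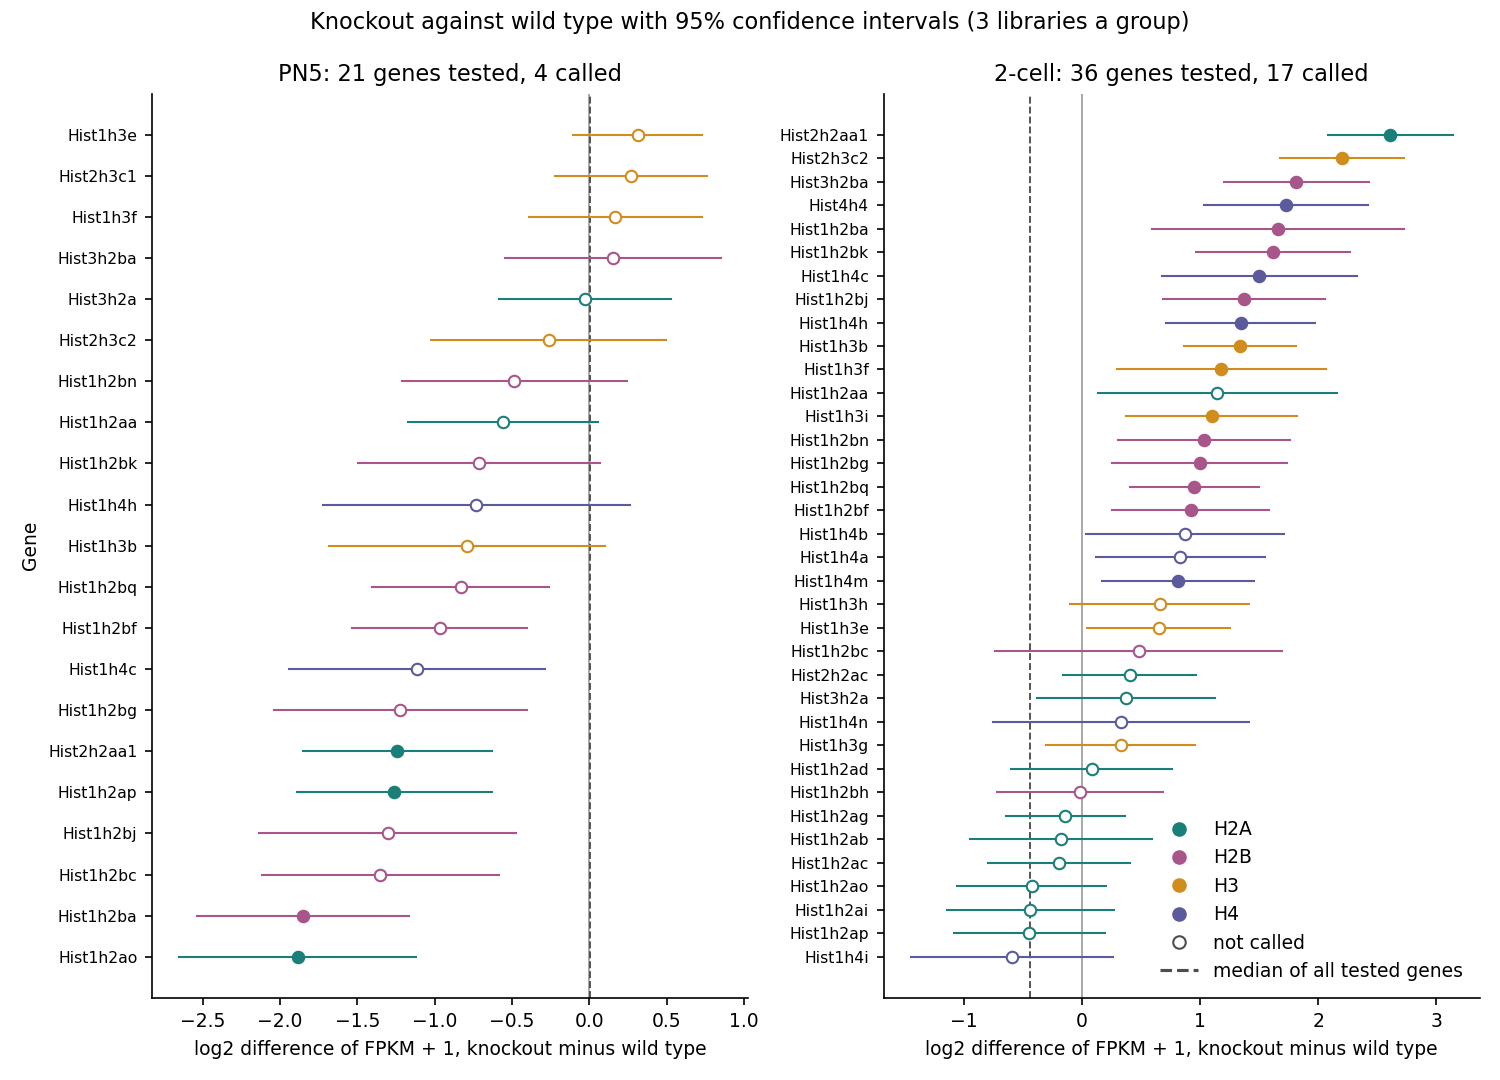
Knockout minus wild type as log2 differences of FPKM + 1 for the core histone genes tested at PN5 (left) and in 2-cell embryos (right); points are coloured by histone type, filled where called, with 95% confidence intervals, and the dashed line is the median of all tested genes. At PN5 17 of 21 points lie below 0, and at the 2-cell stage 28 of 36 lie above 0, where the 7 Hist1 H2A genes other than Hist1h2aa run from -0.45 to 0.08 and the dashed line stands at -0.44.

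Called genes were counted by sequence feature. In 2-cell embryos 13 of the 26 tested genes with the stem-loop found were called, and 4 of the 10 in whose annotated transcripts it was not found. Some of the latter, such as Hist1h2ba, could not be searched, so this split also reflects the annotation. Of the 17 tested genes that share at least 50% of their 100-base runs with another member 8 were called, and of the 19 others 9. Hist3h2ba and Hist4h4, which share 4.9% and 4.3% of such runs, were among the called genes. By cluster 13 of 30 Hist1, 2 of 3 Hist2, 1 of 2 Hist3 genes and Hist4h4 were called.

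The change from PN5 to the 2-cell stage differed between genotypes for 22 of 40 tested genes, all with the higher change in the knockout, where 13.8% of all tested genes had a higher and 31.9% a lower change. The median difference was 1.27 against -0.43 over all tested genes. It was largest for Hist2h2aa1 (3.85, SE 0.35, adjusted p = 6.09e-05), Hist1h2ba (3.51, SE 0.60, adjusted p = 0.000782), Hist1h2bj (2.68), Hist1h4c (2.62), Hist2h3c2 (2.46), Hist1h2bk (2.33), Hist1h2bg (2.22) and Hist4h4 (2.21). By type 3 of 11 H2A, 10 of 11 H2B, 4 of 9 H3 and 5 of 9 H4 genes were called, and of the 7 Hist1 H2A genes 1 was, Hist1h2ao (1.46, adjusted p = 0.0201). The difference holds the lower PN5 and the higher 2-cell values of the knockout together. Of 20 genes tested at both stages 15 were negative at PN5 and positive in 2-cell embryos, and Hist1h2ba and Hist2h2aa1 were called at both. Leaving out any 1 library gave 16 to 23 calls.

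**Figure D5:**
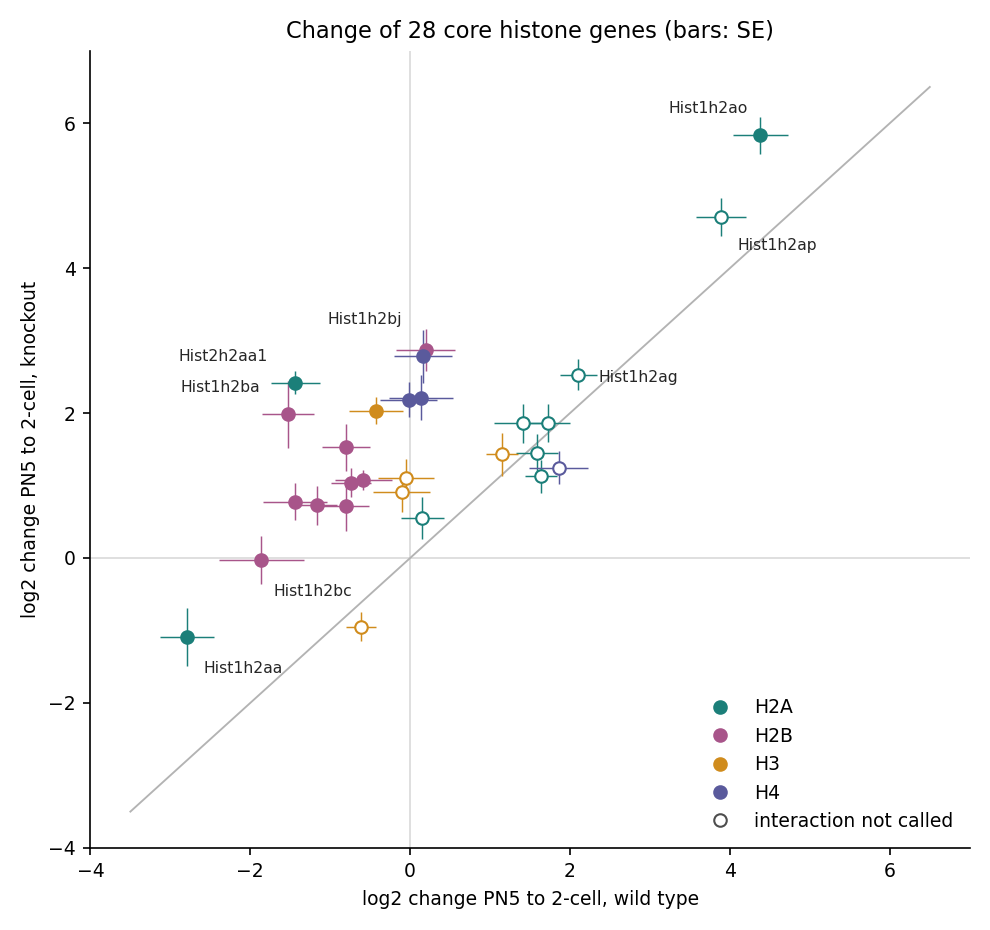
Log2 change from PN5 to the 2-cell stage in wild type (horizontal) and knockout (vertical) for the 28 core histone genes tested in both, with SE bars, coloured by type and filled where the interaction was called; the grey diagonal marks equal change. Of the 28 genes 24 lie above the diagonal, with Hist2h2aa1 and Hist1h2ba falling in wild type and rising in the knockout and Hist1h2ao and Hist1h2ap rising in both.

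Genes that make, process and deliver histones were followed beside the members. SLBP, the stem-loop binding protein, had its mRNA at 194, 187 and 195 FPKM for wild type against 251, 237 and 285 FPKM for the knockout in GV oocytes, and at 582, 555 and 528 against 804, 934 and 957 FPKM at MII. The knockout was higher without overlap at both stages, and the difference was called at MII (log2 0.69, SE 0.13, adjusted p = 0.0407), where 1 of 22 tested genes of 3-prime processing and histone transcription was called higher and 0.32% of all tested genes were. In 2-cell embryos Slbp stood at 41.9, 48.7 and 66.1 against 52.2, 116 and 125 FPKM (0.82, adjusted p = 0.0733). Npat, the coactivator of histone transcription, stood there at 34.4, 28.7 and 21.8 FPKM for wild type against 8.01, 6.48 and 8.73 FPKM for the knockout (-1.73, SE 0.23, adjusted p = 0.000721). Npat mRNA was thus lower in the knockout in 2-cell embryos, where 17 core histone genes were called higher. A link between them was not tested. Of the 26 genes tested of this list 5 were higher and 11 lower, with a median of -0.58, where 14% of all tested genes were higher and 40.3% lower, among the lower Cstf2t (-1.85), Snrpb (-2.75) and Cpsf3 (-1.93), the last the nuclease that cuts histone pre-mRNA.

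Chaperones and replication genes were read against the same shares of all tested genes in 2-cell embryos, 14% higher and 40.3% lower. Of 26 tested chaperones and importers 4 were higher and 13 lower, with a median of -0.62. Nasp, a carrier of H3 and H4, was at 50.6, 40.0 and 40.4 FPKM for wild type against 8.03, 10.6 and 12.3 FPKM for the knockout (log2 -1.99, adjusted p = 0.000389). Hat1, which acetylates new H4, differed by -1.67 and Ubn1, a subunit of an H3.3 chaperone, by -1.41, while Npm2, the oocyte carrier of H2A and H2B, was higher by 2.00 (adjusted p = 0.00126). Of 39 tested replication genes none was higher and 22 were lower, with a median of -0.95, led by Prim1 (-2.11), Cdc45 (-1.72), Cdc7 (-2) and Prim2 (-1.66). The medians of these lists stand beside -0.44 for all tested genes. At PN5 Hat1 was lower as well (-1.10, adjusted p = 0.0411), with Dnajc9 (-1.02), Cstf2t (-0.74) and Gins1 (-0.95), and at MII Gins3 (-1.29, adjusted p = 0.0494). At PN5 5.53% of all tested genes were called lower. Only 11 genes in all were called lower there with median-of-ratios rescaling, and 6 with TPM values. None of the list genes was called at GV.

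The replacement histones, most of which are made outside S phase too and from polyadenylated mRNA, were tested in the same way. In 2-cell embryos 1 of 8 tested genes was higher and 4 were lower in the knockout, beside 14% and 40.3% of all tested genes. H3f3b, one of the genes for H3.3, had 304, 426 and 324 FPKM for wild type and, without overlap, 749, 596 and 790 FPKM in the knockout (log2 1.02, SE 0.20, adjusted p = 0.0032), and H3f3a differed by 0.04 (SE 0.27). The H2A variants H2afj (-3.91, adjusted p = 0.000461), H2afv (-1.73) and H2afz (-0.80, adjusted p = 0.0189) were lower, as was Cenpa, the H3 variant of centromeres (-0.89), and H2afx differed by 0.14 (SE 0.29). At PN5 H3f3c was lower (-1.24, adjusted p = 0.0498), and H3f3a differed by a like amount without a call (-1.22, adjusted p = 0.0817). Per length H3f3b stood far above every H3 member in these values. The 12 H3 members of the core histone set summed to 7.34 to 13.7 FPKM for wild type against 29.6 to 32.4 FPKM for the knockout in 2-cell embryos. Member mRNA without a poly(A) tail is undercounted by the kit, so the gap to H3f3b does not measure a difference in abundance.

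Markers of the stage moved in the same comparison. The 12 oocyte markers summed to 1300.3 to 1674 FPKM for wild type against 4282 to 4993 FPKM for the knockout in 2-cell embryos, and 8 were higher and 2 lower in the knockout, among the higher H1foo (log2 3.38), Oosp1 (1.71) and Bmp15 (1.5) and among the lower Zp3 (-1.57). The 2-cell markers summed to 1781 to 2569 against 2921 to 4430 FPKM, and 5 of 14 were higher and 2 lower. Tdpoz4 (-3.05) and Tdpoz1 (-1.84) were the lower ones, and Gm8300 (1.12) and Zscan4d (0.79) were among the higher. Granulosa and cumulus markers summed to 20.2 to 35.8 against 7.89 to 12.9 FPKM, with Cyp19a1 (1.07) called higher and Tnfaip6 (-2.32) lower, and sperm and spermatid markers to 30.8 to 35.6 against 22.2 to 25.1 FPKM, with Odf2 (0.67) called higher and Ldhc (-1.78) and Tssk6 (-1.66) lower. The part of these shifts in the core histone values was not tested.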

How the data were processed

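RNA sequencing (SMART-Seq HT kit) had been applied to 24 libraries of 5 pooled oocytes or embryos. The deposited values are FPKM per gene, made by the authors with StringTie on GRCm38, per the submitters' processing notes; the aligner, the annotation release, the strand setting and the treatment of reads with several matches are not given in the sources used here. Of the low values of single-transcript genes, 98.8 to 99.2% in each library were whole multiples of 1 fragment (tolerance 0.02), which gave the depth of each library. Where a kit primes on poly(A), mRNAs without a tail are undercounted, and short transcripts rest on few fragments.

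Levels were compared as log2(FPKM + 1) with limma 3.58.1 (trend and robust) in R 4.3.3 with package data.table (version 1.17.8), a mean per group, over genes that reached 1 FPKM in 3 or more of the libraries compared, with Benjamini-Hochberg adjustment over all tested genes and a threshold of 0.05. Each stage comparison had its own fit, and interactions used the 4 groups concerned. The fit was tested on simulated data. Nothing in the labels says that replicate numbers pair the libraries. Sequences came from the GENCODE M21 transcripts and RefSeq promoters (56 of 61 genes matched), read with Python 3.11.15, pandas 2.3.3 and numpy 2.4.6; figures were drawn with matplotlib 3.10.9. Genes named with values were Nlrp14, the most abundant members, members called in a genotype comparison (up to 12 a stage), up to 8 called members a direction for stage changes and interactions, up to 4 called genes per list, and the TH2A, TH2B, Hist3, SLBP, NPAT and main variant genes. The members, the gene lists and the tests were chosen with earlier results of these data known. Alternatives were another pseudocount (0.1), no filter, a mean of at least 5 FPKM, median-of-ratios rescaling, TPM, removal of a length trend, a replicate block, 1 fit of all 24 libraries and leaving out each library; removal of length and GC trends together was added after seeing the data.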

Additional observations from a re-analysis of the deposited data

Results flagged for a closer look

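The listed genes are those whose change between neighbouring stages differed between the genotypes in the limma interaction test (adjusted p under 0.05 over all tested genes). Values are the knockout change minus the wild-type change on the log2(FPKM + 1) scale.

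From MII to PN5 the values were -2.03 for Hist1h2bc, -2.002 for Hist1h2ba, -1.97 for Hist1h2bg, -1.70 for Hist2h2aa1, -1.63 for Hist1h2bj and -1.46 for Hist1h2bf. None of these 6 was called under every alternative.

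From PN5 to the 2-cell stage H2A genes had 3.85 for Hist2h2aa1, 1.70 for Hist1h2aa and 1.46 for Hist1h2ao. The H2B genes had 3.51 for Hist1h2ba, 2.68 for Hist1h2bj, 2.33 for Hist1h2bk, 2.22 for Hist1h2bg, 1.89 for Hist1h2bf, 1.83 for Hist1h2bc, 1.78 for Hist1h2bq, 1.66 for Hist3h2ba, 1.52 for Hist1h2bn and 1.29 for Hist1h2bl. The H3 genes had 2.46 for Hist2h3c2, 2.13 for Hist1h3b, 1.39 for Hist1h3a and 1.25 for Hist1h3i. The H4 genes had 2.62 for Hist1h4c, 2.21 for Hist4h4, 2.07 for Hist1h4h, 1.39 for Hist1h4b and 1.18 for Hist1h4a. The 8 highest of these 22 were called in each of the 7 or 8 alternative settings in which they were tested. Those settings do not include the 12 refits that each left out 1 library. The other genes were not refitted singly.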

How the results depend on the processing

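Refits of the gene changes that were called and named gave no reversed direction; 676 kept their side of the threshold and 120 lost the call. Uncalled differences were not refitted this way, and those of the Hist1 H2A genes in 2-cell embryos do change sign with the scaling. Counts of called core histone genes moved more. For knockout against wild type at GV, 0 became 2 with the length trend removed or with length and GC trends removed. At MII, 1 became 0 with a pseudocount of 0.1, no filter, a mean of at least 5 FPKM, median-of-ratios rescaling or 1 fit of 24 libraries. At PN5, 4 became 2 with a pseudocount of 0.1, with the length trend or with length and GC trends removed, 0 with no filter, median-of-ratios rescaling or TPM, and 12 with 1 fit of 24 libraries. At the 2-cell stage, 17 became 10 with no filter and 9 with a mean of at least 5 FPKM. That stricter mean, which tests fewer genes, gave 11 for GV to MII, 4 for MII to PN5 and 8 for PN5 to 2-cell in wild type, 10, 5 and 11 in the knockout, and 9 for the interaction from PN5. No filter gave 4 for MII to PN5 in wild type and 5 in the knockout, median-of-ratios rescaling 4 in wild type, and length trend removal 18 for PN5 to 2-cell in the knockout. The interaction from MII to PN5 went from 6 to 0 with a pseudocount of 0.1, no filter, TPM, or either trend removal. Where not named above, the cause was not tested. The summed knockout level over wild type in 2-cell embryos was 0.46 on the log2 scale and 0.73 with median-of-ratios rescaling.

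Leaving out 1 library gave 0 to 3 calls for GV oocytes, 0 to 7 for MII oocytes, 0 to 9 for PN5 zygotes and 10 to 17 for 2-cell embryos; 13 to 25, 3 to 8 and 7 to 17 for the wild-type stage changes; 16 to 22, 4 to 10 and 13 to 26 for the knockout ones; and 0, 0 to 11 and 16 to 23 for the interactions.

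Replicate numbers did not pair the libraries: correlations of same-numbered deviations ran from -0.40 to 0.52, and in no comparison were all 3 above 0.1. In MII to PN5 of wild type each library matched its own number best, a hint from the data and not from the design. With the replicate number as a block the genotype comparisons gave 0 (GV), 1 (MII), 0 (PN5) and 17 calls (2-cell), against 22, 9 and 15 for wild-type and 21, 8 and 30 for knockout stage changes, and 0, 0 and 22 for the interactions.

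Genes with few fragments, such as Hist1h3i with 0 to 3 in the wild-type 2-cell libraries, are limited by depth.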
